A study of Mus musculus with 7 samples.

Results

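Cells make cholesterol and fatty acids from the same acetyl-CoA, and a single family of transcription factors drives both pathways. The sterol regulatory element-binding proteins SREBP-1 (encoded by Srebf1) and SREBP-2 (Srebf2) are held in the endoplasmic reticulum with the escort protein SCAP by INSIG proteins as long as sterols are plentiful. When sterols run low they are released, cut in the Golgi and enter the nucleus, where they bind short sterol regulatory elements next to their targets, Insig1 among them. SREBP-2 mainly acts on sterol synthesis, and SREBP-1 mainly on fatty acid synthesis and desaturation. In muscle these pathways supply lipid for membranes, and polyunsaturated fatty acids are known to restrain SREBP-1.

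Here 8 genes of these pathways were followed, taken by gene symbol with earlier results of these data known. They are the regulators Srebf1, Srebf2 and Insig1, the sterol enzymes Hmgcs1 and Sqle, and the fatty acid enzymes Fasn, Scd1 and Scd2. On the array they are measured by 9 probes, 2 of them for Srebf2, among 39429 probes for 31829 gene names. The arrays were 7 samples of C2C12, an immortal line of mouse myoblasts that can differentiate into myotubes, incubated for 24 h without serum with exosomes from other C2C12 cultures. Exosomes of the 4 Exo-BSA samples came from cells given bovine serum albumin alone (palmitate at 0 mM), and those of the 3 EXO-Palm samples from cells given 0.5 mM palmitate on albumin. The paper calls the groups EXO-Post BSA and EXO-Post Palm, since the exosomes were collected 9 h after palmitate was removed.

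No group without exosomes was analysed here, so each difference sets one kind of exosome against the other. The labels give the cell type as myoblast, while the paper writes of myotubes. Of 10 muscle genes, 9 were well above background on all 7 arrays, among them Myog, Acta1 and Myh3, and of 4 myoblast markers Pax7 and Cdh15 were so on all 7 arrays and Myf5 on none. Whether cells of other types contributed was looked at through their markers. The adipocyte markers, of interest because fat cells are rich in Scd1 and Fasn, were well above background on all arrays for 1 of 8 genes, Pparg. Their mean log2 value lay between -5.02 and -4.17 on Exo-BSA arrays and between -4.84 and -4.55 on EXO-Palm arrays, and Cfd was not well above background on any array. None of 4 hepatocyte markers was well above background on all arrays. Of 6 macrophage markers 3 were, and of 5 fibroblast markers 4 were, and the mean over the fibroblast markers was 2.02 to 2.46 on Exo-BSA and 1.86 to 2.06 on EXO-Palm arrays. Differences within these lists had both signs, from -1.63 (Itgam) to 1.05 (Cd14) among tested macrophage markers and from -1.64 (Col1a1) to 0.69 (Thy1) among fibroblast markers. No marker passed the adjusted threshold, and the part of other cell types in the results below was not tested. In a whole culture, less RNA per cell and fewer cells that carry it cannot be told apart.

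Every value below is log2 of the background-subtracted signal minus the 75th percentile of its array, so 0 is that percentile and a difference of -1 is a halving of signal. Levels are compared only within a probe. With 4 slides in use, slide 1 held Exo-BSA replicates 1 and 2 with EXO-Palm replicate 1, and slide 3 held Exo-BSA replicate 4 with EXO-Palm replicate 3. Exo-BSA replicate 3 (slide 2) and EXO-Palm replicate 2 (slide 4) had no array of the other group beside them. The share of probes well above background ran from 48.3 to 70.3%, and the correlation between arrays from 0.946 to 0.985 between groups and from 0.948 to 0.984 within them. The samples are labelled as biological replicates, and whether each received its own exosome preparation is not given in the sources used here.

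Promoter sequences of some of these genes were searched for short runs of letters, apart from the array values. They are from RefSeq on GRCm38.p6, from 250 bases before to 50 after the start, and were held for 5 of the 8 genes, Fasn, Hmgcs1, Srebf1 with 3 starts, Srebf2 and Insig1. The letters TCACNCCAC, a form of the sterol regulatory element, were searched on both strands, as was CCAAT, the box bound by NF-Y, a frequent partner of SREBP. The first was found in 1 of 7 promoters, that of Hmgcs1, and in 1.24% of all 32851 promoters. CCAAT was found in 6 of 7, against 37.4% of all. The promoter of Hmgcs1 is shown for carrying both, and those of Insig1 and Fasn for a feedback gene and a fatty acid enzyme with CCAAT alone. Capitals mark the matches, with CCAAT on the opposite strand read as ATTGG.
Hmgcs1, chr13:119690101-119690400, plus strand: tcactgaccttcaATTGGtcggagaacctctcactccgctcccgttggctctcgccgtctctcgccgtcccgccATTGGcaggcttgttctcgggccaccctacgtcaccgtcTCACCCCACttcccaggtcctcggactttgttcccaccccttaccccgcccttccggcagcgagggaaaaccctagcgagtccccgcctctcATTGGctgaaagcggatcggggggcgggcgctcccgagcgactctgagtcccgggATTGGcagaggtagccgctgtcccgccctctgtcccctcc
Insig1, chr5:28071162-28071461, plus strand: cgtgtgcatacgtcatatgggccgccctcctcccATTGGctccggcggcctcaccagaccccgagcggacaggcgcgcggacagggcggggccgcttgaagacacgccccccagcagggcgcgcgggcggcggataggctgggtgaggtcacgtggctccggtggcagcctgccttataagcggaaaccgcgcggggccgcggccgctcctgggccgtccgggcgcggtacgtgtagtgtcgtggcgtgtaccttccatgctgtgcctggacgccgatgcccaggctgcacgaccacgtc
Fasn, chr11:120824498-120824797, minus strand: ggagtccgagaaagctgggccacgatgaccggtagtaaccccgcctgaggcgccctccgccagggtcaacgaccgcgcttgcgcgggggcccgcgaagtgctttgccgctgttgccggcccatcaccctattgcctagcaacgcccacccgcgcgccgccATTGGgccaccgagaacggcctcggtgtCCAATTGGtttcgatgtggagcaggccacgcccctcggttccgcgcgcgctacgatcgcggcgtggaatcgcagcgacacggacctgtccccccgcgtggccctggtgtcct
The element of Hmgcs1 begins at position -137 from the start and lies on the strand of the gene. Of its 4 CCAAT boxes, those nearest the element begin at -176 and -45. In Insig1 the single box begins at -216, and in Fasn 3 matches begin at -90, -62 and -59, the last pair overlapping. A match is a description of letters and no match says only that these letters are not in the window.

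The question of the comparison is whether cells given exosomes of palmitate-treated cells differ in RNA from those given exosomes of albumin-treated cells. All 9 probes had a mean below that of Exo-BSA, and none passed the threshold of the limma fit, an adjusted p of 0.05 over 21589 tested probes. Over the array 0.533% of tested probes passed, and 52.7% had a difference below 0. Without adjustment 2 probes, those of Scd1 and Hmgcs1, were under 0.05 (5.19% of all tested probes were under 0.05 with a lower value under EXO-Palm). The groups did not overlap for 4 probes, Scd1, Scd2, Hmgcs1 and Srebf1, each with EXO-Palm below, against 5.87% of all probes. Of the 9 probes 7 were well above background on all arrays, and the other 2, of Scd2 and Srebf2, passed the filter through Exo-BSA alone, Scd2 because its spot on EXO-Palm replicate 2 was an outlier. All of the 7 were below 0 (52.1% of such probes over the array). The groups did not overlap for 3 of the 7, Scd1, Hmgcs1 and Srebf1, and the share of such probes over the array was not worked out. The separation of Scd1, Hmgcs1 and Srebf1 was lost in the authors' processed values, which were taken with outlier spots kept. Scd2 overlapped there only through its outlier spot, at 15.20 against a lowest Exo-BSA array of 15.16. Its values on EXO-Palm replicates 1 and 3 were 15.03 and 14.74. In those values 1 of the 9 probes, that of Sqle, did not overlap (5.85% of all probes). There the highest EXO-Palm array of Hmgcs1 read 14.51 against 13.89 to 14.46 with Exo-BSA, and that of Scd1 12.46 against a lowest Exo-BSA array of 12.42. The 8 genes had a median difference of -0.31, from -0.91 to -0.15, and all tested genes one of -0.03.

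**Figure D1:**
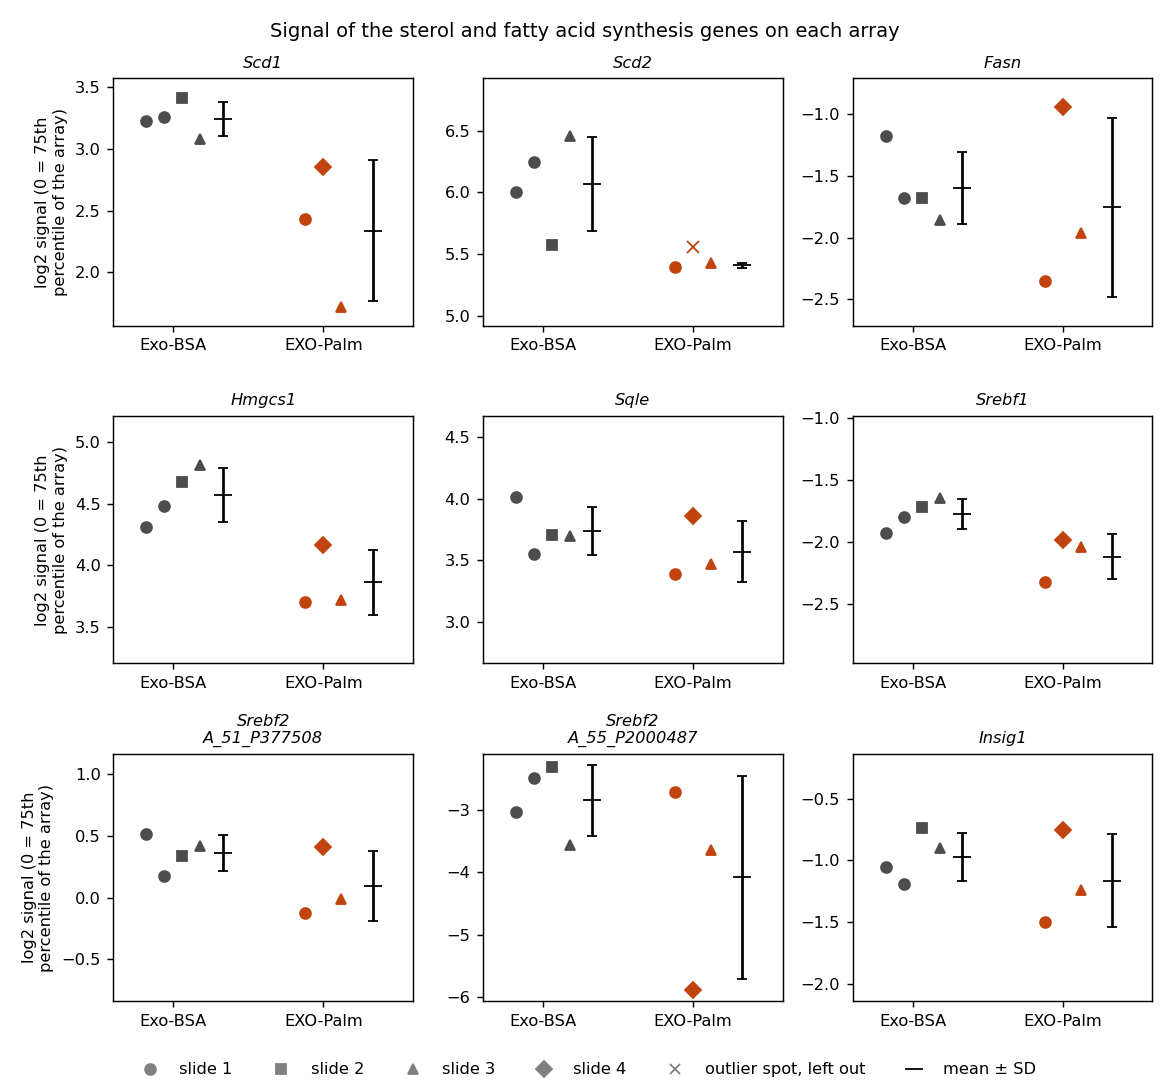
Log2 signal of each of the 9 probes on every array, relative to the 75th percentile of that array. Points are arrays, their shape is the slide, bars are mean ± SD, and the cross is an outlier spot left out. On this scale EXO-Palm lies wholly below Exo-BSA for Scd1, Scd2, Hmgcs1 and Srebf1, and replicate 2 (diamond) is the highest EXO-Palm array for Scd1, Fasn, Hmgcs1, Sqle, Srebf1 and Insig1 and the first Srebf2 probe.

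Among the regulators, Srebf1 encodes SREBP-1, the factor of the lipogenic program. Its probe (A_55_P2002557, mm9 chromosome 11, 60012664 to 60012723, minus strand) read -1.92, -1.80, -1.71 and -1.64 on the 4 Exo-BSA arrays and -2.32, -1.99 and -2.04 on the 3 EXO-Palm arrays. The groups did not overlap, but the highest EXO-Palm array was close to the lowest Exo-BSA array. The difference was -0.35 ± 0.20 (SE, n = 4 and 3), with a limma adjusted p of 0.601 and an exact two-sided permutation p of 0.0571. Within slide 1 it was -0.46 and within slide 3 it was -0.40.

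Srebf2 encodes SREBP-2, the factor of the sterol program. Its first probe (A_51_P377508, chromosome 15, 82034765 to 82034824, plus strand) read 0.51, 0.18, 0.34 and 0.42 with Exo-BSA and -0.13, 0.41 and -0.01 with EXO-Palm. EXO-Palm replicates 1 and 3 were below every Exo-BSA array and replicate 2 lay among them. The difference was -0.27 ± 0.21, limma adjusted p = 0.714, with -0.47 and -0.43 within slides 1 and 3. Leaving out EXO-Palm replicate 2 gave -0.43 and leaving out replicate 1 gave -0.16. In the authors' processed values it was -0.01. The second probe (A_55_P2000487, 82030068 to 82030127) read -3.03, -2.48, -2.31 and -3.56 against -2.72, -5.88 and -3.64. The value of EXO-Palm replicate 2 was not well above background. It set the difference of -1.23 ± 0.67 (limma adjusted p = 0.595), which was -0.33 without that array and 0.04 and -0.08 within slides 1 and 3. The probes of this gene thus gave unlike values, and the dimmer one showed no difference within a slide.

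Insig1 encodes a protein that keeps SCAP and the SREBPs in the endoplasmic reticulum and is itself an SREBP target. Its probe (A_51_P290207, chromosome 5, 28404246 to 28404305, plus strand) read -1.05, -1.19, -0.74 and -0.90 with Exo-BSA and -1.50, -0.76 and -1.24 with EXO-Palm. The pattern was that of the first Srebf2 probe, with EXO-Palm replicates 1 and 3 below all Exo-BSA arrays and replicate 2 near the top. The difference was -0.19 ± 0.24, limma adjusted p = 0.827, and -0.38 and -0.34 within slides 1 and 3. Leaving out EXO-Palm replicate 2 gave -0.40, and leaving out replicate 1 gave -0.03.

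Hmgcs1 makes HMG-CoA in the cytosol, an early step of sterol synthesis. Its probe (A_55_P2032966, placed by the array annotation on an unlocalised part of chromosome 13, 13_random, 114793 to 114852, minus strand) read 4.32, 4.48, 4.67 and 4.81 with Exo-BSA and 3.70, 4.17 and 3.72 with EXO-Palm. All EXO-Palm arrays were below all Exo-BSA arrays. The difference was -0.71 ± 0.22, a ratio of 0.612, with 6.42% of tested probes at or below it, and within slides 1 and 3 it was -0.70 and -1.09. The exact two-sided permutation p was 0.0286, the smallest that 4 against 3 arrays allow, and the limma adjusted p was 0.323. In the authors' processed values the difference was -0.36.

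Sqle, squalene epoxidase, catalyses the first oxygen-dependent step towards lanosterol. Its probe (A_55_P1975185, chromosome 15, 59162688 to 59162747, plus strand) read 4.01, 3.55, 3.70 and 3.70 with Exo-BSA and 3.39, 3.86 and 3.47 with EXO-Palm. The groups overlapped, since EXO-Palm replicate 2 was above 3 of the 4 Exo-BSA arrays. The difference was -0.17 ± 0.22, limma adjusted p = 0.832, and -0.39 and -0.23 within slides 1 and 3. Leaving out EXO-Palm replicate 2 gave -0.31, and leaving out replicate 1 gave -0.08.

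Fasn, fatty acid synthase, makes palmitate, the fatty acid that the donor cells had been given. Its probe (A_52_P100252, chromosome 11, 120667666 to 120667725, minus strand) read -1.18, -1.68, -1.68 and -1.86 with Exo-BSA and -2.35, -0.95 and -1.97 with EXO-Palm. EXO-Palm held both the lowest and the highest array of the 7. The difference was -0.15 ± 0.34 (limma adjusted p = 0.912), and it was -0.92 within slide 1 and -0.11 within slide 3. The sign depended on 1 array, with -0.56 without EXO-Palm replicate 2 and 0.14 without replicate 1.

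Scd1 and Scd2 encode stearoyl-CoA desaturases, paralogous enzymes of chromosome 19 that turn saturated palmitate and stearate into monounsaturated fatty acids. The Scd1 probe (A_52_P682382, 44469387 to 44469446, minus strand) read 3.22, 3.26, 3.41 and 3.08 with Exo-BSA and 2.44, 2.85 and 1.72 with EXO-Palm. The Exo-BSA arrays lay close together and the EXO-Palm arrays were spread (SD 0.14 and 0.57), all of them below. The difference was -0.91 ± 0.28, a ratio of 0.534 (95% interval 0.343 to 0.831). It was -0.80 within slide 1 and -1.36 within slide 3, and 3.64% of tested probes had a difference at or below it. The exact two-sided permutation p was 0.0286 and the limma adjusted p 0.311. Leaving out EXO-Palm replicate 3, the lowest array, gave -0.60, and leaving out replicate 2 gave -1.16.

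The Scd2 probe (A_51_P129464, 44381024 to 44381083, plus strand) read 6.001, 6.24, 5.57 and 6.45 with Exo-BSA and 5.40 and 5.43 on EXO-Palm replicates 1 and 3. The spot of EXO-Palm replicate 2 was marked as an outlier by the scanner software and was left out of the fit. The other EXO-Palm arrays were both below Exo-BSA, close to its lowest array, replicate 3. The difference was -0.66 ± 0.29 (n = 4 and 2), with a limma adjusted p of 0.516 and an exact two-sided permutation p of 0.133, where 0.0667 is the smallest these numbers allow. With the marked spot kept it was -0.61, and within slides 1 and 3 it was -0.73 and -1.03. Whether the Scd1 and Scd2 probes also bind RNA of the paralog was not tested.

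**Figure D2:**
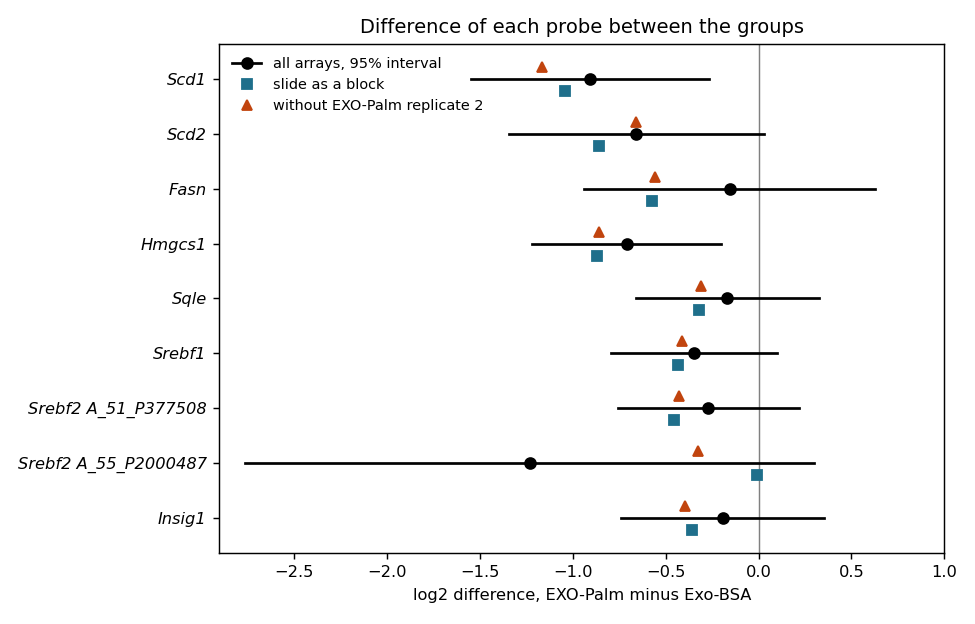
Log2 difference, EXO-Palm minus Exo-BSA, of each probe over all arrays with its 95% interval (circles and lines), with slide as a block (squares) and without EXO-Palm replicate 2 (triangles). The intervals of Scd1 and Hmgcs1 alone exclude 0 before adjustment over the array. The dimmer Srebf2 probe goes from -1.23 to -0.01 with slide as a block and Fasn from -0.15 to -0.57. Neither the squares nor the triangles draw on EXO-Palm replicate 2, which has no Exo-BSA array on its slide.

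Set against their own Exo-BSA means, the genes differed between EXO-Palm arrays. On replicate 1 all 8 genes were below, with a median of -0.61, and on replicate 3 all 8 were below, with a median of -0.37. On replicate 2 only 3 of 7 measured genes were below, Scd1, Hmgcs1 and Srebf1, and the median was 0.05. The medians of the 4 Exo-BSA arrays lay between -0.08 and 0.06, but these arrays set the means, which draws their own values towards 0. Over all tested probes the median was -0.006, 0.026 and -0.011 on EXO-Palm replicates 1, 2 and 3. Within slide 1 the difference was negative for 8 of 9 probes and within slide 3 for 9 of 9. Each of these rests on 1 EXO-Palm array, so the probes do not give separate signs. The share of all probes negative within a slide was not worked out. EXO-Palm replicate 2 was the array of that group with no control on its slide, so slide and sample cannot be told apart there. Without it the median of the 8 genes was -0.49, and with slide as a block it was -0.51, and none passed the adjusted threshold of limma in either fit. The slide block takes the difference from slides 1 and 3 alone. Both values thus leave out EXO-Palm replicate 2 and are not separate checks.

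**Figure D3:**
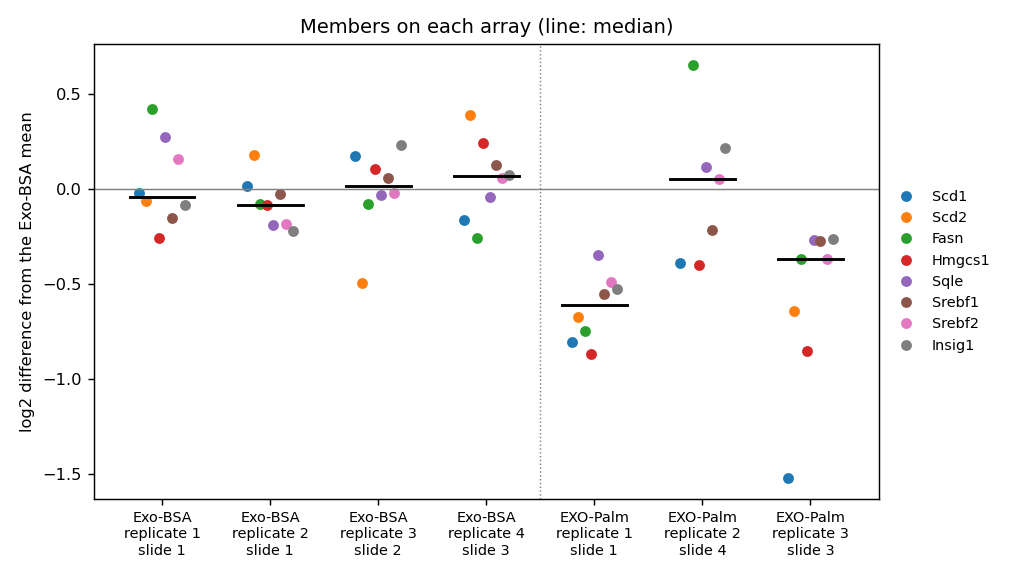
Log2 difference of the 8 genes from their Exo-BSA mean on each array (points, Srebf2 by its brighter probe) with the median of each array (black lines). EXO-Palm replicates 1 and 3 hold all 8 genes below 0, and replicate 2 holds Fasn, Sqle, Srebf2 and Insig1 above 0.

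The rest of the pathways was read from 5 wider lists, 1 probe a gene, and no gene of any list passed the adjusted threshold of limma (0.561% of 17477 tested genes did). In sterol synthesis 15 of 22 genes had a difference below 0, in fatty acid synthesis, elongation and desaturation 14 of 21, and in SREBP and lipogenic control 10 of 14, against 53.5% of all tested genes. The medians were -0.17, -0.17 and -0.20, and without the 8 genes -0.14, -0.16 and -0.05. In sterol uptake, storage and efflux 6 of 12 were below 0, with a median of -0.03, and in glycerolipid synthesis 4 of 10, with a median of 0.04. With arrays scaled to their medians the last was -0.02, where the median of all tested probes also went from -0.02 to -0.08. Leaving out the 8 genes, 41 of 71 genes were below 0, with a median of -0.11. The lists were closer to the whole array than the 8 genes were, but both were chosen with earlier results of these data known.

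Of the 20 sterol genes beyond Hmgcs1 and Sqle, 13 had a difference below 0 and 7 above. The groups did not overlap for 3 of them, Idi1 included, each with EXO-Palm below (6.23% of all tested genes). Idi1, the isomerase of the isoprenoid units, had the lowest difference of its list. It read 2.73, 2.39, 2.79 and 2.74 with Exo-BSA and 1.64 and 1.74 on EXO-Palm replicates 1 and 3, the spot of replicate 2 being an outlier. The difference was -0.97 ± 0.24 (n = 4 and 2) with a limma adjusted p of 0.197, and it was -0.73 with the outlier spot kept. Like Scd2, Idi1 passed the filter through Exo-BSA alone. Dhcr7, which closes cholesterol synthesis, stood at -0.58 with overlapping groups. Acat2, which joins acetyl-CoA units, stood at 0.32 and Lbr, a sterol reductase of the nuclear envelope, at 0.10, each with overlapping groups. Without Hmgcs1 and Sqle, 16 of 20 sterol genes were below their Exo-BSA mean on EXO-Palm replicate 1 (median -0.33), 6 of 19 on replicate 2 (median 0.16) and 13 of 20 on replicate 3 (median -0.31). The order of the EXO-Palm arrays was thus that of the 8 genes, with replicate 2 the highest.

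In fatty acid synthesis, Elovl6, the elongase that lengthens palmitate, stood at -0.73 ± 0.53 with overlapping groups (limma adjusted p = 0.687). Slc25a1, the carrier that exports citrate for acetyl-CoA supply, stood at 0.70 ± 0.32 (limma adjusted p = 0.517), Mcat, of mitochondrial fatty acid synthesis, at 0.41, and Fads1, a desaturase of polyunsaturated fatty acids, at 0.27. Leaving out Scd1, Scd2 and Fasn, 9 of 18 genes were below their Exo-BSA mean on EXO-Palm replicate 1, 10 of 18 on replicate 2 and 11 of 18 on replicate 3, with medians of 0.01, -0.14 and -0.08. The lower values of the desaturases were therefore not accompanied by a like median over the list. Elovl2, Elovl3, Elovl7 and Scd4 were not tested, being too dim.

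Among the other regulators, Nr1h3, the oxysterol receptor LXR alpha that activates Srebf1 and Scd1, had the highest difference. It read -3.09, -3.52, -3.25 and -3.26 with Exo-BSA and -2.53, -2.38 and -1.70 with EXO-Palm, with no overlap. The difference was 1.08 ± 0.25, and its limma adjusted p of 0.154 missed the threshold. A further probe of Nr1h3 stood at 1.35. Nr1h2, LXR beta, stood at -0.36, Scap at 0.08 and the SREBP protease Mbtps2 at 0.15, all with overlapping groups. Insig2 stood at -0.45 on its brighter probe, with EXO-Palm wholly below, and at -0.87 on the other. In the authors' processed values the brighter probes of Insig2 and Nr1h3 stood at -0.23 and 0.78. Thrsp and Mlxipl were too dim to test.

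In sterol uptake, storage and efflux, Apoe, a lipid-carrying apolipoprotein, stood at -0.49, and the sterol efflux pump Abca1, an LXR target, at 0.34, both with overlapping groups. Soat1, which esterifies cholesterol, stood at 0.35. Scarb1, the HDL receptor, gave -1.74 on a probe that was at -5.95 on EXO-Palm replicate 2 alone, and 0.33 on another probe. Lrp8 was too dim to test.

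In glycerolipid synthesis 3 of 10 tested genes, the 3 lowest, did not overlap between groups, with EXO-Palm below, a state shared by 6.23% of all tested genes. Lpin1, a phosphatidate phosphatase and transcriptional coactivator, read -1.29, -1.01, -1.29 and -1.33 with Exo-BSA and -2.10, -1.66 and -2.20 with EXO-Palm, a difference of -0.76 ± 0.22 (limma adjusted p = 0.249). Agpat3, an acyltransferase of phosphatidate synthesis, stood at -0.66 and Lpin3 at -0.49, with limma adjusted p of 0.324 and 0.428. In the authors' processed values Agpat3 stood at -0.32, Lpin1 at -0.91 and Lpin3 at -0.72. Dgat1, which makes triacylglycerol, stood at 0.25, Agpat2 at 0.20 and Lpin2 at 0.09, with overlapping groups. Mogat1 was too dim to test.

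**Figure D4:**
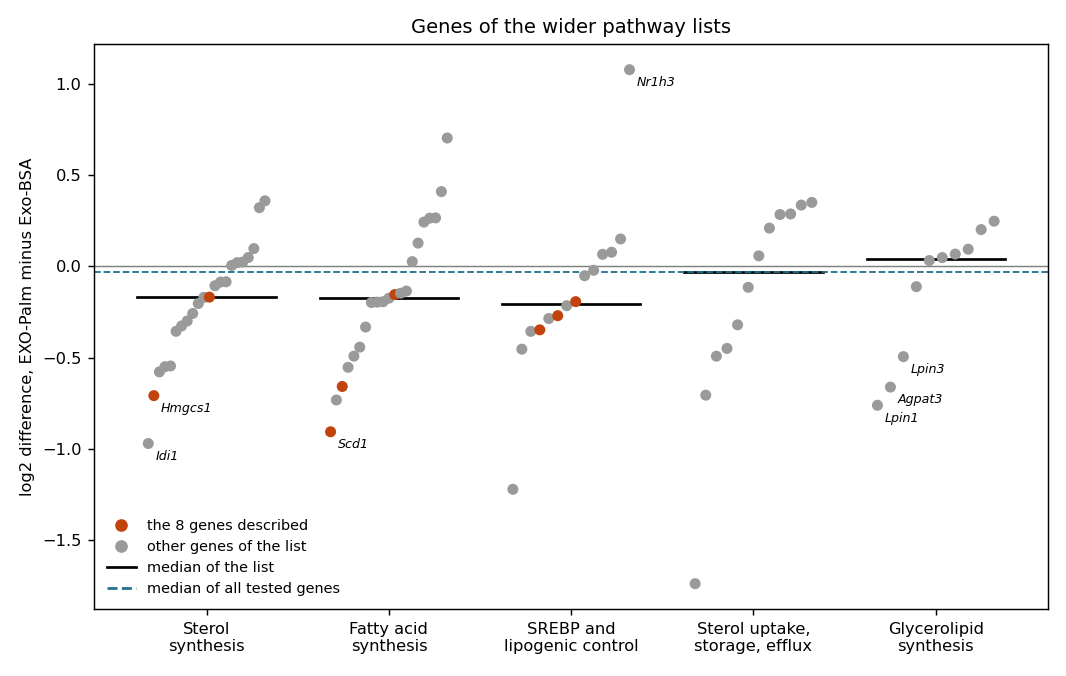
Log2 difference, EXO-Palm minus Exo-BSA, of each tested gene of 5 pathway lists, ordered within its list, with the 8 genes in red, the median of each list as a black line and that of all tested genes dashed. Labelled genes are among those with an unadjusted limma p under 0.05, and none passed after adjustment. The medians of the first 3 lists lie at -0.17, -0.17 and -0.20 and those of the last 2 at -0.03 and 0.04.

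The mean profile of the 8 genes over the 7 arrays had a correlation of 0.72 (Fasn) to 0.94 (Srebf2) with its own members, which it contains. Outside the lists, the genes with the most similar profile were Adh1 (r = 0.99), an alcohol and retinol dehydrogenase, Cpd (0.98), a carboxypeptidase, Ctdp1 (0.98), a phosphatase of RNA polymerase II, Fam38b (0.98) and Hbegf (0.98), a growth factor of the EGF family. Of 17006 genes compared, 178, or 1.05%, had r above 0.9, over 7 arrays that share slides. Adh1 had a difference of -1.72 with a limma adjusted p of 0.229, and the other 4 had differences between -0.50 and -0.18.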

How the data were processed

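RNA of 4 Exo-BSA and 3 EXO-Palm samples was measured on 1-colour Agilent mouse arrays, from 0.1 ug of RNA per sample. The authors deposited, for every array, the scanner software's processed signal, a background-subtracted intensity without normalisation across arrays. They also deposited log2 values whose distribution is identical on all arrays. These carry row numbers alone and were matched to spots by order (rank correlation with the same array 0.994 or more). The submitters' processing notes name Agilent Feature Extraction 9.1, and the file headers 10.7.3.1 on 6 arrays and 11.5.1.1 on Exo-BSA replicate 3. The paper names Agi4x44PreProcess and limma without settings.

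Each processed signal was taken to log2 and centred on the 75th percentile of its array (549.4 to 1621, over 43020 non-control spots). Spots marked as uneven or as outliers, 136 to 371 per array, were dropped, and 399 probes printed 10 times were averaged. No spot was saturated. Testing required a probe to be well above background on 75% or more of the arrays in 1 group or both. Gene names of Exo-BSA replicate 3 came from the other arrays by probe name. A linear model on group was fitted with limma 3.58.1 in R 4.3.3, with two-sided p-values adjusted over 21589 probes by the Benjamini-Hochberg method. Single probes also had an exact permutation test over 35 splits. P-values set a difference against the spread between these samples within the groups, and the number of arrays limits the precision. A gene of a list is given by its brightest tested probe. Coordinates of probes are as the array annotation lists them (mm9), and their place in exons or UTRs was not analysed here.

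The genes and lists were chosen with earlier results of these data known. Named are all probes of the 8 genes, list genes past the threshold, the 3 highest and 3 lowest of each list, and the 5 genes most like the mean profile. Some genes that this rule covers are not reported here. Against the settings used, 24 alternatives covered scaling, background, filter, slide, replicate number, variance, test and each array left out. Same-numbered arrays deviated from their group means with r of 0.12, -0.15 and -0.15, so the replicate numbers were not taken to pair the samples. Arrays of both groups on the same slide gave 0.12, 0.31 and 0.17. Neither the limma fit on group alone nor the exact permutation test, which splits the arrays freely, takes account of the shared slides.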

Additional observations from a re-analysis of the deposited data

Results flagged for a closer look

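In 3 of 36 groups of 4 Exo-BSA arrays, 1 for each named probe tested, a single array stood apart from the other 3 by Dixon's test, which chance alone marks in about 1 of 20 groups. For Idi1, Exo-BSA replicate 2 read 2.39 and the others 2.73 to 2.79. For Lpin1, the same array read -1.01 and the others -1.33 to -1.29. For Dgat1, Exo-BSA replicate 4 read -0.18 and the others 0.22 to 0.23. None of the 9 probes of the 8 genes was among them.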

How the results depend on the processing

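None of the 9 probes passed the adjusted threshold in any of the settings tried, and 204 of 205 of their values over these settings were below 0, including those of the 2 probes that passed the filter through Exo-BSA alone. The exception was Fasn without EXO-Palm replicate 1, at 0.14. The settings reuse the same arrays, and those that change only the filter, the variance or the test leave the difference as it was. These values are therefore not separate observations. Without adjustment, limma put 2 of the probes past 0.05, Scd1 at -0.91 and Hmgcs1 at -0.71, among 2169 over the array, and the methods' t-test, also unadjusted, put 3 there, these and Srebf1 at -0.35, among 2108. Over all tested probes 115 passed after adjustment, 181 with slide as a random block and 173 with a trended and robust variance, but 0 with no filter on dim probes, 0 by the methods' t-test after Benjamini-Hochberg adjustment and 0 with the replicate number as a block. With that replicate block the median of the sterol uptake list was 0.053 and Scd1 stood at -0.96. Same-numbered arrays were not shown to be pairs, and the block changed no call of the 8 genes. With slide as a block the medians were -0.51 for the 8 genes, -0.37 for sterol synthesis, -0.29 for SREBP control and -0.071 for glycerolipid synthesis. That fit takes differences from slides 1 and 3 alone, without EXO-Palm replicate 2 or Exo-BSA replicate 3. Scaled to the array median, SREBP control stood at -0.26 and glycerolipid synthesis at -0.020, and SREBP control at -0.15 when scaled to the percentile of probes well above background on all arrays. In the authors' processed values SREBP control stood at -0.072. With normexp on the median signal, an alternative chosen after seeing the data because 1 file lacks the mean signal, so that normexp on the mean was not run, the fatty acid list stood at -0.075 and SREBP control at -0.070. Keeping outlier spots, also chosen after seeing the data, changed no call of the 8 genes. With only probes well above background on all arrays sterol uptake stood at 0.057. With the mean over all probes of a gene the 8 genes stood at -0.50 and the fatty acid list at -0.035.

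Leaving out 1 array at a time gave 0 (without Exo-BSA replicate 1) to 202 (without EXO-Palm replicate 2) probes past the threshold over the array. The count was 44, 21 and 68 without Exo-BSA replicates 2, 3 and 4, and 7 and 27 without EXO-Palm replicates 1 and 3. Fasn ranged from -0.56 to 0.14. Medians ranged from -0.49 (without EXO-Palm replicate 2) to -0.20 (without EXO-Palm replicate 1) for the 8 genes, -0.36 to -0.093 for sterol synthesis, -0.24 to -0.059 for the fatty acid list, -0.34 to -0.060 for SREBP control, -0.086 to 0.056 for sterol uptake and -0.062 to 0.071 for glycerolipid synthesis. The cause of these shifts was not tested. Of the 9 probes, 7 were well above background on all arrays, and the dimmer Srebf2 probe is limited by its signal.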
